A study of Mus musculus with 30 samples.

Results

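Liver transcripts of male mice gavaged with the chicory root decoction G35 were compared with those of male mice gavaged with water. The 6 arrays, 3 of male G35 and 3 of male control 1, were taken by sex and gavage in the sample labels, out of 30 arrays in all. G35 is 1 of the 2 chicory genotypes whose root flour the study gave to mice, the other being G12. A separate arm gave inulin, the fructan stored in chicory roots, at 6.9 mg per mouse and day, a dose that the labels match to the inulin of G35, beside its own water controls (control 2). All mice ate standard chow, were 8 weeks old at day 0 and received 500 µl by gavage each day for 30 days, after which liver RNA was read on one-colour Agilent arrays, 1 mouse per array. Male G35 mice received a decoction that corresponded to 10 mg root powder per mouse and day, and male control 1 mice received water by the same route. The labels name no strain, engineered allele or pooling of animals.

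The liver of a resting mouse stores glucose as glycogen, and targeting subunits bring protein phosphatase 1 to the glycogen particle, where it acts on glycogen synthase and phosphorylase. Insulin restrains the transcription factor FOXO1, whose known targets include Igfbp1 and the gluconeogenic gene Pck1. Glucocorticoids, feeding and the circadian clock act on an overlapping set of hepatocyte genes, Per1 among them. In inflammation hepatocytes secrete acute phase proteins such as the serum amyloids.

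Each of slides 1, 4 and 5 held 1 male G35 array and 1 male control 1 array, and these pairs also shared their replicate number, so that replicate 1 lay on slide 5, replicate 2 on slide 4 and replicate 3 on slide 1. Median intensity on the deposited linear scale was 183, 218 and 460 for G35 replicates 1, 2 and 3 and 190, 221 and 315 for the controls, and precision is limited by the number of arrays. All 3 control arrays occupied block 4 of their slides and the G35 arrays blocks 1, 3 and 2, so position on the slide and gavage cannot be told apart in these males. The tissue label was checked with hepatocyte markers, of which 5 of 6 were measured. Their summed level, as log2 intensity, was 16.68 to 16.87 in G35 and 16.65 to 16.71 in controls. Alb, 1 of these markers, reached the maximum intensity on 5 of the 6 arrays. The sum therefore cannot show whether hepatocyte content was equal between the groups. Values below are log2 normalized intensities unless stated, so that a difference of 1 is a factor of 2, and differences are G35 minus control 1 with the standard error (SE) of the limma fit and 3 mice in each group.

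The comparison of G35 with water asks which liver transcripts differ after the chicory decoction. Of 8996 genes tested, C9orf72 alone rose past an adjusted p of 0.05 in the limma model with no term for slide, which is 0.0111% of genes, and 528 genes had an unadjusted p under 0.05. With slide as a fixed block 32 genes passed (0.356%), of which 26 rose (0.289%) and 6 fell (0.0667%). The pairing by slide is given in the labels, and both counts are therefore stated. All 32 genes had the same sign within each of the 3 slides, where 18.1% of all genes lay higher in every pair and 19.6% lower, and 30 of them did not overlap between the groups. Among all genes, 6.48% lay higher in G35 without overlap and 6.48% lay lower without overlap. The 32 genes were chosen by a fit to these same pairs. Their shared signs and lack of overlap largely follow from that choice and are no independent support. With slide as a random block 41 genes passed, including 22 of the 32, and with the replicate number as a block 9 passed, including 8 of the 32. In the rest of the text rose and fell refer to the fit with slide as a fixed block. A value after ± is the SE of the fit without slide unless stated, so it is not the SE behind these calls.

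The count of 32 depended on single mice. Leaving out male control 1 replicate 3 left 2 calls, and leaving out control replicate 2 left 6. It was 4 without G35 replicate 2 or without G35 replicate 3, and 22 without replicate 1 of either group. C9orf72 and Irf2bp2 passed in all 6 of these fits, and Saa3 in 5, its adjusted p being 0.0734 without control replicate 3. Of the other 29 genes, 16 passed in 1 or 2 of the 6 fits and 13 in none, the latter including Foxo1, Per1, Plk3, Cp and Gstm2. Fitted on the 6 arrays alone with slide in the model, 23 genes passed, 12 of them among the 32.

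**Figure D1:**
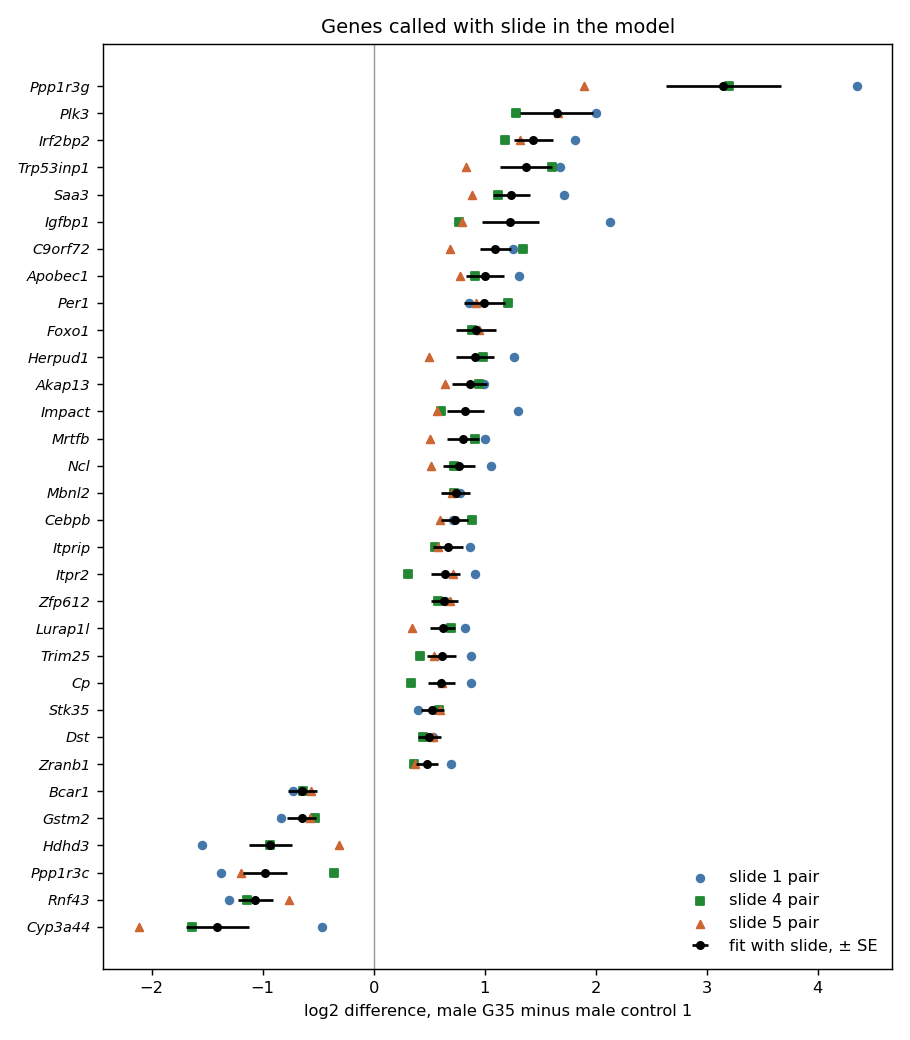
Log2 difference (G35 minus control 1, x axis) of the 32 genes that passed with slide in the limma model, one per line. Black points with bars are the fitted difference ± SE of the fit with slide, and coloured symbols are the 3 within-slide pairs. Every coloured symbol lies on the same side of 0 as the fitted difference, and Ppp1r3g lies farthest right at 3.15.

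C9orf72 encodes a protein that works in a complex with SMCR8 and WDR41 in autophagy and lysosome biology, known from the human gene. Its level was 8.84, 9.16 and 8.99 in G35 replicates 1 to 3 and 8.15, 7.81 and 7.73 in the controls. All G35 livers lay above all control livers. The difference was 1.10 ± 0.15, with an adjusted p of 0.0015 without slide and 0.00206 with it. Fitted on the 6 arrays alone without slide, its adjusted p was 0.163. Smcr8 lay at 8.01, 7.73 and 7.98 in G35 against 7.54, 7.52 and 7.46, a difference of 0.41 ± 0.15 that did not pass with slide in the model (adjusted p 0.0800). A second, dimmer Smcr8 probe gave -0.13. Wdr41, looked up after its partners had been seen, lay at 6.55, 6.43 and 6.71 against 6.50, 6.30 and 6.65, and its groups overlapped. Of 30 measured genes of autophagy and nutrient stress, 20 lay higher and the median difference was 0.09. C9orf72 and Trp53inp1 were the 2 that rose, against 0.289% of all genes. Ulk1, a kinase that starts autophagy, differed by 0.31 ± 0.19 and did not pass.

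**Figure D2:**
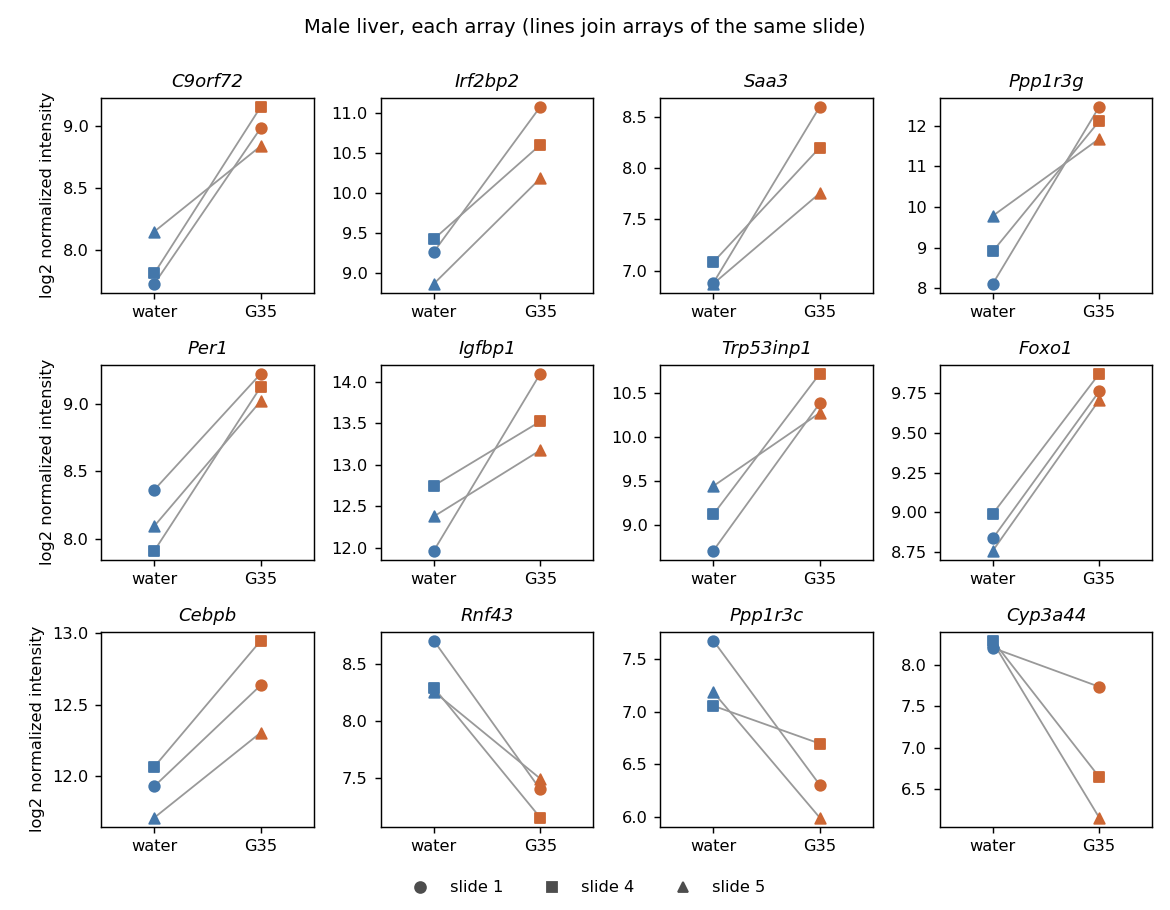
Log2 normalized intensity (y axis) of 12 genes in every male control 1 (water) and male G35 array, with symbols by slide and lines joining arrays of the same slide. In each panel all 3 lines run the same way and the groups do not overlap, with Rnf43, Ppp1r3c and Cyp3a44 lower in G35.

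Genes of glycogen targeting moved in opposite directions. Ppp1r3g, which encodes a glycogen-targeting subunit of protein phosphatase 1 known in mouse liver to be induced by fasting, lay at 11.68, 12.11 and 12.47 in G35 and at 9.78, 8.91 and 8.11 in controls. The lowest G35 liver exceeded the highest control. The difference of 3.15 ± 0.67 was the largest of the 32 and passed with slide (adjusted p 0.0222) but not without it (0.0764). Ppp1r3c, which encodes another targeting subunit, lay at 5.99, 6.70 and 6.30 against 7.19, 7.06 and 7.68. It fell by 0.98 ± 0.22 (adjusted p 0.0472 with slide, 0.121 without), again with no overlap. Its level was close to the floor that the background offset sets, 5.64. Ppp1r3b, which encodes the main liver subunit, lay at 14.61, 14.37 and 12.55 against 14.00, 14.39 and 13.13. Its groups overlapped, and its difference of 0.00 had a 95% interval from -0.95 to 0.96. Ppp1r3d and Ppp1r3e were not measured. Of 16 measured genes of glycogen metabolism 9 lay higher and 7 lower, with a median of 0.02. Gys2, the liver glycogen synthase, differed by 0.47 ± 0.19 without overlap and did not pass (adjusted p 0.255 with slide).

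Foxo1 and Igfbp1 rose among 21 measured genes of insulin signalling and FOXO1 targets, against 0.289% of all genes. Foxo1 lay at 9.71, 9.87 and 9.76 in G35 and at 8.76, 8.99 and 8.84 in controls, a difference of 0.92 ± 0.23 (adjusted p 0.0445 with slide, 0.182 without). Both Foxo1 probes gave similar differences, 0.92 and 0.89. Igfbp1, which encodes a secreted binder of insulin-like growth factors, lay at 13.17, 13.52 and 14.10 against 12.38, 12.75 and 11.97. The groups did not overlap, and the difference was 1.23 ± 0.34 (adjusted p 0.0472 with slide, 0.281 without). Neither gene passed with the replicate number as a block (adjusted p 0.197 and 0.351). In this list 16 of 21 genes lay higher, against 49.2% of all genes, and 6 of the 21 lay higher without overlap, against 6.48%. The list median was 0.27, against -0.0047 over all genes. It was 0.18 in males given G12, -0.05 in females given G35 and -0.01 in males given inulin. The list members Ppargc1a, a coactivator of gluconeogenic genes, and Pdk4, which restrains pyruvate oxidation, differed by 0.94 ± 0.27 and 0.92 ± 0.34 without overlap. Neither passed. Cited2, a transcriptional coregulator, was lower by 0.59 ± 0.22 and did not pass either. Bcl6, the lowest member of the list, differed by -1.15 ± 0.56 with overlap and did not pass (adjusted p 0.258 with slide).

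The promoter of Igfbp1 is shown because FOXO1 is known to act on it through an insulin response element, whose core letters CAAAACA are in capitals (RefSeq, GRCm38.p6, chr11:7197537-7197786, plus strand, the 250 bases before the start of the gene).
Igfbp1: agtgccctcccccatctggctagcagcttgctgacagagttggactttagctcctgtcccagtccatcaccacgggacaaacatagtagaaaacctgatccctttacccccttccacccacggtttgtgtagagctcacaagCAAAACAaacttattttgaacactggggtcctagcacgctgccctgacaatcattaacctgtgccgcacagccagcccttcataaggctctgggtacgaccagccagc
The capitals span bases -108 to -102. CAAAACA was searched on both strands of the same window in 7341 of the tested genes that had a promoter in the table. It occurred in 4.69% of them and in 3 of the 23 genes that rose and had an entry there, namely Cp, Igfbp1 and Itprip. The FoxO site GTAAACA, searched in the same way, occurred in 3.05% of all promoters, in 0 of the 23 genes that rose and in 1 of the 6 that fell, Cyp3a44. A match of letters is a description of the window.

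The other insulin-like growth factor binding proteins gave no difference that passed. Igfbp2 differed by -0.04 (95% interval -0.57 to 0.49), Igfbp3 by 0.08 (-0.29 to 0.45) and Igfbp4 by 0.22 (-0.41 to 0.85). Igfbp5 differed by -0.14 (-0.54 to 0.26) and Igfbp6 by -0.22 (-0.81 to 0.36). Across 20 measured genes of gluconeogenesis and glycolysis none passed. Of these 16 lay higher, 5 (25%) without overlap, against 6.48% of all genes, with a median of 0.18. The list median was 0.21 in males given G12, against the same control 1 mice. It was 0.05 in females given G35 and 0.001 in males given inulin. Pck1, which encodes the enzyme that commits oxaloacetate to gluconeogenesis, lay at 14.26, 14.43 and 14.75 against 13.95, 13.87 and 14.18, a difference of 0.48 ± 0.23 without overlap. Pfkfb3, which makes the activator of phosphofructokinase, lay at 8.59, 8.75 and 8.60 against 7.71, 7.72 and 7.69, a difference of 0.94 ± 0.26 (adjusted p 0.129 with slide).

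Per1, a repressor of the circadian clock that also answers to glucocorticoids, lay at 9.02, 9.13 and 9.22 in G35 and at 8.10, 7.91 and 8.36 in controls. The groups did not overlap. It rose by 1.00 ± 0.20, with an adjusted p of 0.0327 with slide, 0.0594 without and 0.0425 with the replicate block. Per2 overlapped between the groups and differed by 0.21 (95% interval -0.18 to 0.60). Per3 was not measured. Of 18 measured clock genes 14 lay higher, 7 of them (38.9%) without overlap, against 6.48% of all genes, and the median was 0.21. The clock median was 0.22 in males given G12, against the same control 1 mice. It was -0.13 in females given G35 and -0.06 in males given inulin. Noct, a rhythmic gene known for its part in lipid metabolism, differed by 1.02 ± 0.24 without overlap and did not pass (adjusted p 0.0800 with slide). Bhlhe40, a clock repressor, and Nfil3, a clock output factor, differed by 0.63 ± 0.23 and 0.65 ± 0.23, and neither passed. The labels give no clock hour for the collection of the livers, so the part of time of day in these values was not tested.

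The Per1 promoter is shown because clock activators bind E-boxes of the letters CACGTG, in capitals here (RefSeq, GRCm38.p6, chr11:69098699-69098948, plus strand, the 250 bases before the first of 2 annotated starts).
Per1: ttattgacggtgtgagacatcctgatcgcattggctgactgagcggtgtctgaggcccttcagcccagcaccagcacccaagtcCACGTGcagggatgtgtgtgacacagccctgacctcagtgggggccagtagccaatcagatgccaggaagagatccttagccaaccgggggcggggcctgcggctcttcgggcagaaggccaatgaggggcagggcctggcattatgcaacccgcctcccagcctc
The capitals span bases -166 to -161. The corresponding window of the other annotated Per1 start, chr11:69099902-69100151, does not hold these letters. The same letters, which read alike on both strands, occurred in 10.4% of the 7341 promoters and in 2 of the 23 genes that rose, a share of 8.70%, and in 1 of the 6 that fell, Ppp1r3c.

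Among 22 measured glucocorticoid targets 20 lay higher, 9 of them (40.9%) without overlap, against 6.48% of all genes. The median of 0.51 was the highest of the 27 lists. Per1 and Igfbp1 were the 2 that rose, against 0.289% of all genes. The lists share members, so their medians and counts are not independent. Per1 is also a member of the clock list and Igfbp1 of the list of FOXO1 targets. Dusp1, Zfp36 and Gadd45b are also listed as immediate early genes. Lpin1, a lipid phosphatase and coactivator, lay at 9.90, 9.88 and 8.96 against 8.68, 7.53 and 7.85, a difference of 1.56 ± 0.40 that did not pass (adjusted p 0.152 with slide). Zbtb16 differed by 1.16 ± 0.43 and Nfkbia, the inhibitor of NF-kappaB, by 0.84 ± 0.24, both without overlap and neither past the threshold. The list median was 0.56, 0.51 and 0.30 on slides 1, 4 and 5. The corresponding medians in males given G12 and in females given G35, against their own control 1 mice, were 0.24 and 0.09, and that in males given inulin, against control 2, was -0.23. Males given G12 share their controls with the comparison made here, and the difference between these medians was not tested.

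Plk3 and Cebpb rose among 25 measured immediate early genes, against 0.289% of all genes. Immediate early genes are a class switched on within minutes of many stimuli. Plk3, a stress-responsive kinase, lay at 10.76, 10.04 and 10.94 in G35 and at 9.10, 8.75 and 8.94 in controls. It rose by 1.65 ± 0.33 with no overlap (adjusted p 0.0469 with slide, 0.0594 without). Cebpb, a transcription factor of liver metabolism and inflammation, lay at 12.30, 12.95 and 12.64 against 11.71, 12.06 and 11.93. It rose by 0.73, with an SE of 0.12 in the fit with slide (adjusted p 0.0222) and 0.23 without it (0.451). Of the 25 genes 23 lay higher and 13 (52.0%) did so without overlap, against 6.48% of all genes, and the median was 0.48. The list median was 0.30 in males given G12, 0.07 in females given G35 and 0.04 in males given inulin. Maff, a small MAF factor, differed by 0.89 ± 0.26 and Fosl2, an AP-1 subunit, by 0.48 ± 0.15, and neither passed.

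**Figure D3:**
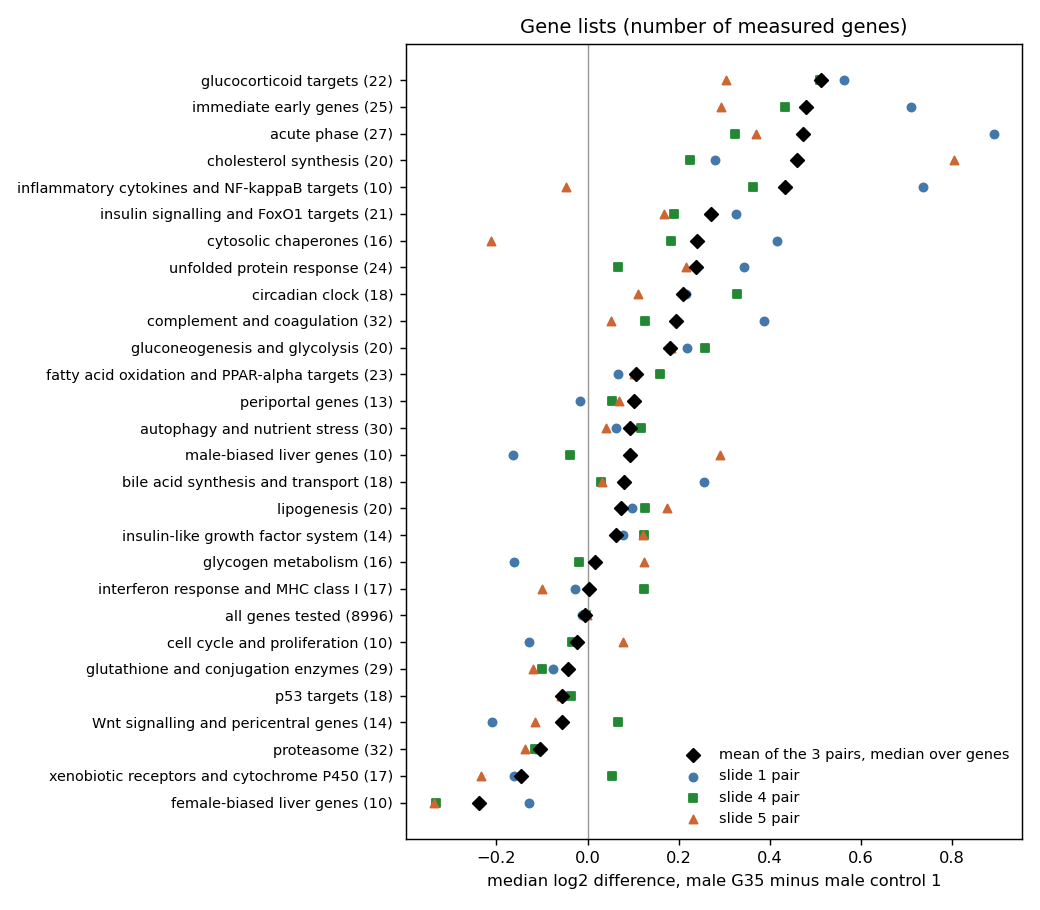
Median log2 difference (G35 minus control 1, x axis) over the measured members of each of the 27 gene lists and over all 8996 genes. Diamonds are medians of the mean differences and coloured symbols the medians within each slide pair; glucocorticoid targets, at 0.51, immediate early genes, at 0.48, and acute phase genes, at 0.47, lay above 0 on all 3 slides.

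Acute phase genes lay mostly higher. Saa3, a serum amyloid made by liver and macrophages, lay at 7.75, 8.20 and 8.60 in G35 and at 6.87, 7.08 and 6.88 in controls. It rose by 1.24 ± 0.25 without overlap (adjusted p 0.0034 with slide, 0.0594 without). Cp, which encodes the copper carrier ceruloplasmin, lay at 12.89, 12.89 and 13.40 against 12.28, 12.56 and 12.53 and rose by 0.61, with an SE of 0.12 with slide and 0.22 without (adjusted p 0.0469 and 0.608). Saa1, the main hepatic serum amyloid, lay at 14.83, 10.98 and 15.39 against 9.29, 9.81 and 10.45. G35 replicates 1 and 3 stood far above all controls and replicate 2 close to the highest control. The Saa1 difference of 3.88 ± 1.30 did not pass (adjusted p 0.252 with slide). Saa2, a near-identical neighbour of Saa1 whose probe may share its signal, showed the same order of G35 livers in part, at 14.83, 10.71 and 14.05 against 9.34, 9.52 and 10.82, and its groups overlapped. Lcn2, an iron-sequestering protein, lay at 10.79, 7.96 and 11.83 against 7.33, 7.56 and 8.20 and also overlapped.

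Of 27 measured acute phase genes 24 lay higher, 8 (29.6%) without overlap, against 6.48% of all genes, and the median was 0.47. It was 0.89 on slide 1 and 0.33 and 0.37 on slides 4 and 5. The list median was 0.35 in females given G35, -0.05 in males given G12 and -0.26 in males given inulin. Kupffer cell and macrophage markers lay higher for 10 of 10 members, 3 (30%) without overlap, against 6.48% of all genes, with a median of 0.20. Their summed level was 12.27 to 12.84 in G35 and 12.27 to 12.32 in controls. Their median difference was 0.585 on slide 1, 0.0855 on slide 4 and 0.1085 on slide 5. It was 0.23 in females given G35, -0.20 in males given G12 and 0.13 in males given inulin. Neutrophil markers, of which 3 of 7 were measured, summed to 8.23 to 8.48 in G35 and 8.04 to 8.19 in controls. The part of these cells in the acute phase values was not tested. In bulk liver more cells of a type and more RNA per cell cannot be told apart. Of 10 measured inflammatory cytokines and NF-kappaB targets 8 lay higher and none passed. The chemokine gene Cxcl10 lay at 7.43, 8.36 and 8.85 against 7.61, 6.23 and 6.60, a difference of 1.40 ± 0.30 with overlap (adjusted p 0.0792 with slide). That list's median was 0.74 on slide 1, 0.36 on slide 4 and -0.05 on slide 5. Interferon and MHC class I genes had 9 of 17 members higher and a median of 0.0043. Among 32 measured complement and coagulation genes 26 lay higher, with a median of 0.19, and none passed.

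Herpud1 encodes a membrane protein of endoplasmic-reticulum-associated degradation. Among 24 measured genes of the unfolded protein response it was the 1 that rose, against 0.289% of all genes. It lay at 12.75, 12.98 and 12.98 in G35 and at 12.26, 11.99 and 11.71 in controls. It rose by 0.92 ± 0.19 with no overlap (adjusted p 0.0327 with slide, 0.0594 without). In the list 20 genes lay higher, 5 (20.8%) without overlap, against 6.48% of all genes, with a median of 0.24. That median was 0.17 in females given G35, 0.07 in males given G12 and 0.12 in males given inulin. Atf4, a stress transcription factor, and Pdia6, a disulphide isomerase, differed by 0.53 ± 0.21 and 0.56 ± 0.27, and neither passed. Of 16 cytosolic chaperones 13 lay higher, led by Hsph1 at 0.78 ± 0.23, and none passed. Their median was 0.24, and 0.42 on slide 1, 0.18 on slide 4 and -0.21 on slide 5. In females given G35 this median was 0.22, in males given G12 0.23 and in males given inulin 0.14.

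The Herpud1 promoter is shown because the gene is a known target of the unfolded protein response through an ER stress response element II, in capitals here (RefSeq, GRCm38.p6, chr8:94386179-94386428, plus strand, the 250 bases before the start).
Herpud1: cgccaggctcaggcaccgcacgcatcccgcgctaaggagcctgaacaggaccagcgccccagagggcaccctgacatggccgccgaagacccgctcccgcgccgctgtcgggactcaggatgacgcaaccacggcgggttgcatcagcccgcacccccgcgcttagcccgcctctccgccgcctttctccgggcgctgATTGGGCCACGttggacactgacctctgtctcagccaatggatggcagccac
The capitals span bases -52 to -42. The element, read with any base at the sixth of its positions, was searched for after the sequence had been seen. It occurred, on either strand, in 6 of the 7341 promoters (0.0817%) and in 1 of the 23 genes that rose.

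Irf2bp2, a transcriptional corepressor that binds the interferon regulatory factor IRF2, rose from 8.87, 9.43 and 9.27 in controls to 10.19, 10.61 and 11.08 in G35. The groups did not overlap. Its difference of 1.44 had an SE of 0.18 with slide and 0.35 without, and adjusted p-values of 0.00206 and 0.182. A second, dimmer probe gave 0.82. Trp53inp1, a p53 target with a part in autophagy, lay at 10.28, 10.72 and 10.38 against 9.44, 9.12 and 8.70 and rose by 1.37 ± 0.29 (adjusted p 0.0297 with slide, 0.0764 without), and a second probe gave 0.67. The p53 targets as a list had 8 of 18 members higher and a median of -0.06. Apobec1, the enzyme that edits apolipoprotein B mRNA, rose by 1.00 ± 0.24. Akap13, an anchor of protein kinase A, rose by 0.86 ± 0.22. Mbnl2, a splicing regulator, rose by 0.74 ± 0.22, and Ncl, the nucleolar protein nucleolin, by 0.77 ± 0.19, although a dim second Ncl probe gave 0.13. The other 10 genes that rose differed by 0.48 to 0.83.

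The 6 genes that fell were Rnf43, Cyp3a44, Hdhd3, Gstm2, Bcar1 and Ppp1r3c, the last described above. Rnf43, a ubiquitin ligase that removes Wnt receptors and is itself a Wnt target, lay at 7.50, 7.16 and 7.40 in G35 and at 8.26, 8.29 and 8.70 in controls. It fell by 1.07 ± 0.24 with no overlap (adjusted p 0.00845 with slide, 0.104 without). Of 14 measured Wnt and pericentral genes 9 lay lower and the median was -0.06. Tbx3, a Wnt-responsive transcription factor of hepatocytes, lay at 8.54, 8.25 and 8.53 against 9.24, 9.10 and 9.24, a difference of -0.75 ± 0.21 that did not pass. Glul, the pericentral glutamine synthetase, differed by 0.19 ± 0.18.

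Cyp3a44, a cytochrome P450 whose level is higher in female mouse liver, lay at 6.16, 6.65 and 7.73 against 8.27, 8.29 and 8.20. It fell by 1.41 ± 0.32 (adjusted p 0.0469 with slide, 0.114 without), with G35 replicate 3 nearest to the controls. Close relatives may share its probe's signal, and Cyp3a11 and Cyp3a16 differed by -0.49 ± 0.24 and -0.59 ± 0.47 with overlap. Of 17 measured P450 and xenobiotic receptor genes 10 lay lower (median -0.15), and of 10 female-biased liver genes 7 lay lower (median -0.24). Male-biased genes split 5 and 5 with a median of 0.09. Gstm2, a glutathione transferase, lay at 9.67, 10.31 and 10.32 against 10.24, 10.84 and 11.16. Its groups overlapped while all 3 slide pairs pointed down, and it fell by 0.65, with an SE of 0.13 with slide and 0.27 without (adjusted p 0.0472 and 0.770). Hdhd3, a hydrolase-family gene, fell by 0.93 ± 0.19, and Bcar1, an adhesion adaptor, by 0.64 ± 0.15.

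Several metabolic lists held no gene that passed in either fit. Cholesterol synthesis genes lay higher in 17 of 20 cases with a median of 0.46, which was 0.81 on slide 5 and 0.28 and 0.23 on slides 1 and 4. In males given G12 this median was 0.24, in males given inulin 0.25 and in females given G35 0.0092. Fdft1, the squalene synthase, lay at 9.64, 9.03 and 9.33 against 8.75, 8.53 and 8.73, and its difference of 0.66 ± 0.25 did not pass. Insig2, which holds the sterol sensor in the endoplasmic reticulum, was lower by 0.76 ± 0.29 with no overlap and did not pass. Lipogenesis had a median of 0.07, fatty acid oxidation 0.11 and bile acid genes 0.08, against 0.10, 0.20 and 0.07 in males given G12. Proteasome genes lay lower for 26 of 32 members, yet the median was only -0.10. Of them 2 (6.25%) lay lower without overlap, close to the 6.48% of all genes. Cell cycle genes split 5 and 5.

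The comparison with females asks whether the difference between G35 and water depends on sex. The difference of the 2 differences passed in limma for Per1 and Slc25a4 (0.0222% of genes, 555 with an unadjusted p under 0.05). In females Per1 lay at 9.10, 8.90 and 8.90 with G35 and at 9.91, 9.23 and 9.61 with water, so the female G35 livers lay below the female controls while the male G35 livers lay above the male ones. Per1 means were 9.12 and 8.97 in male and female G35, and 8.12 and 9.58 in male and female control 1. The male minus female difference was 1.61 ± 0.29 (adjusted p 0.0457). Female G35 arrays lay on slides 6, 6 and 2 and female control 1 arrays on slides 6, 4 and 1, not in pairs. Slc25a4, the ADP/ATP carrier of mitochondria, lay at 9.00, 9.49 and 9.46 in male G35, at 9.68, 9.66 and 10.75 in male controls, at 10.88, 10.68 and 10.96 in female G35 and at 9.85, 10.07 and 9.79 in female controls. Its male minus female difference was -1.65 ± 0.30 (adjusted p 0.0457). The 10 Slc25a4 probes all lay lower in male G35 than in male controls. They were read on the same livers and do not test the female part of this difference. With slide as a fixed block both genes had an adjusted p of 0.0835, and 0 genes passed. Centring each array on its median or scaling to the 75th percentile also left 0.

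The comparison with G12 sets the chicory genotypes against each other in males, without the controls. Pancreatic acinar markers, of which 2 of 8 were measured, had a median difference of 4.26 in males given G12 against control 1. It was -0.11 in males given G35, -0.02 in females given G35 and 0.13 in males given inulin. The same G12 livers gave the G12 medians above, and the part of pancreatic transcripts in these values was not tested. Of all genes 0.0445% passed, with C9orf72, C6 and Lonrf1 higher with G35 (0.0333%) and Cdpf1 lower. C9orf72 lay at 7.99, 7.90 and 8.22 with G12, 0.96 ± 0.15 below its G35 level (adjusted p 0.00644 without slide, 0.0217 with it). C6, a complement component, lay at 9.74, 9.98 and 9.15 with G35 and at 8.60, 8.16 and 8.28 with G12, a difference of 1.28 ± 0.21 (adjusted p 0.00954, and 0.0512 with slide). With slide in the model Lonrf1 differed by 0.68 ± 0.10 and Cdpf1 by -0.98 ± 0.14, each with an adjusted p of 0.0134. The groups did not overlap for any of the 4. With the replicate block 1 gene passed. Against their shared control 1 mice, Per1 differed by 1.00 with G35 and 0.88 with G12, Irf2bp2 by 1.44 and 0.98, and Ppp1r3g by 3.15 and 1.40. These pairs of values share the same 3 control livers.

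**Figure D4:**
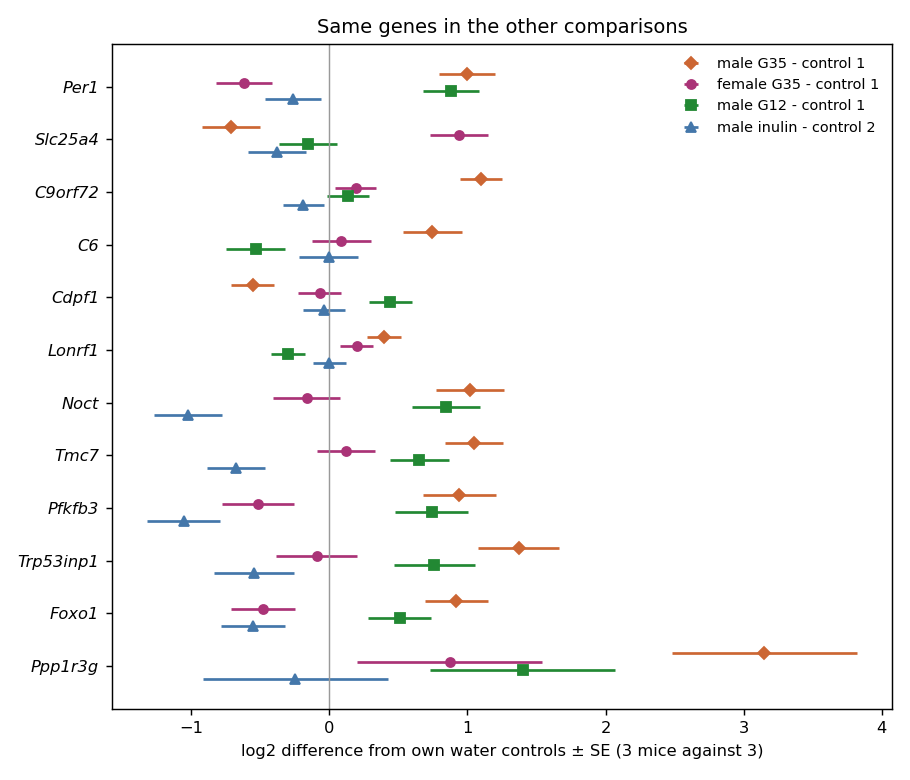
Log2 difference from the gavage's own water controls ± SE (x axis) for 12 genes in male G35, female G35, male G12 and male inulin, 3 mice against 3 each. Per1 and Slc25a4 lie on opposite sides of 0 in male and female G35, and C9orf72 stands at 1.10 in male G35 and between -0.19 and 0.19 elsewhere.

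The comparison with inulin sets each gavage against its own water controls. The G35 difference exceeded the inulin difference for C9orf72, Noct, Tmc7 and Pfkfb3 (0.0445% of genes), and 277 genes had an unadjusted p under 0.05. For C9orf72 the inulin livers lay at 8.15, 8.32 and 8.29 and the control 2 livers at 8.40, 8.39 and 8.53, and the difference of differences was 1.28 ± 0.21 (adjusted p 0.0186). Noct lay at 9.30, 10.12 and 9.58 with inulin and at 10.55, 10.67 and 10.84 in control 2, so the 2.04 ± 0.35 for Noct (adjusted p 0.0186) joined a higher level after G35 to a lower one after inulin. The same was true of Tmc7, at 1.72 ± 0.30, and of Pfkfb3, at 1.99 ± 0.37 (adjusted p 0.0186 and 0.0394). Once slide was added as a block, 13 genes passed (0.145%), 12 of them higher. They added Cebpb, Foxo1, Irf2bp2, Itprip, Lurap1l, Pptc7, Saa3 and Trp53inp1 above, and below them Leap2, an antimicrobial peptide gene, at -2.14 (adjusted p 0.0242). The replicate block left 0 genes.

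The 32 genes were set in the order of all 10 groups, a description that the choice of genes favours at both ends. Of the 26 that rose, male control 1 had the lowest mean of the 10 groups in 17, and male G35 the highest in 16. Over all genes these shares were 10.1% and 7.38%. Male G35 exceeded the means of all 4 control groups for 18 of the 26, C9orf72, Irf2bp2, Saa3, Ppp1r3g and Igfbp1 among them, and for 1353 of all 8996 genes. C9orf72 averaged 8.99 ± 0.16 (SD, n = 3) in male G35, 7.90 ± 0.22 in male control 1 and 8.44 ± 0.07 in male control 2. For Foxo1 the mean was 9.78 in male G35 and 9.77 in male control 2, against 8.86 in male control 1. Herpud1 was higher in male control 2, at 13.24, than in male G35, at 12.90, and Per1 reached 9.58 in female control 1 against 9.12 in male G35. Control 2 mice belonged to the inulin experiment on other slides, so experiment and slide cannot be told apart in these levels. Of the 6 genes that fell, male G35 was lowest of all 10 groups in 5, against 10.1% of all genes, and Cyp3a44 was lower still in male control 2, at 6.40.

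**Figure D5:**
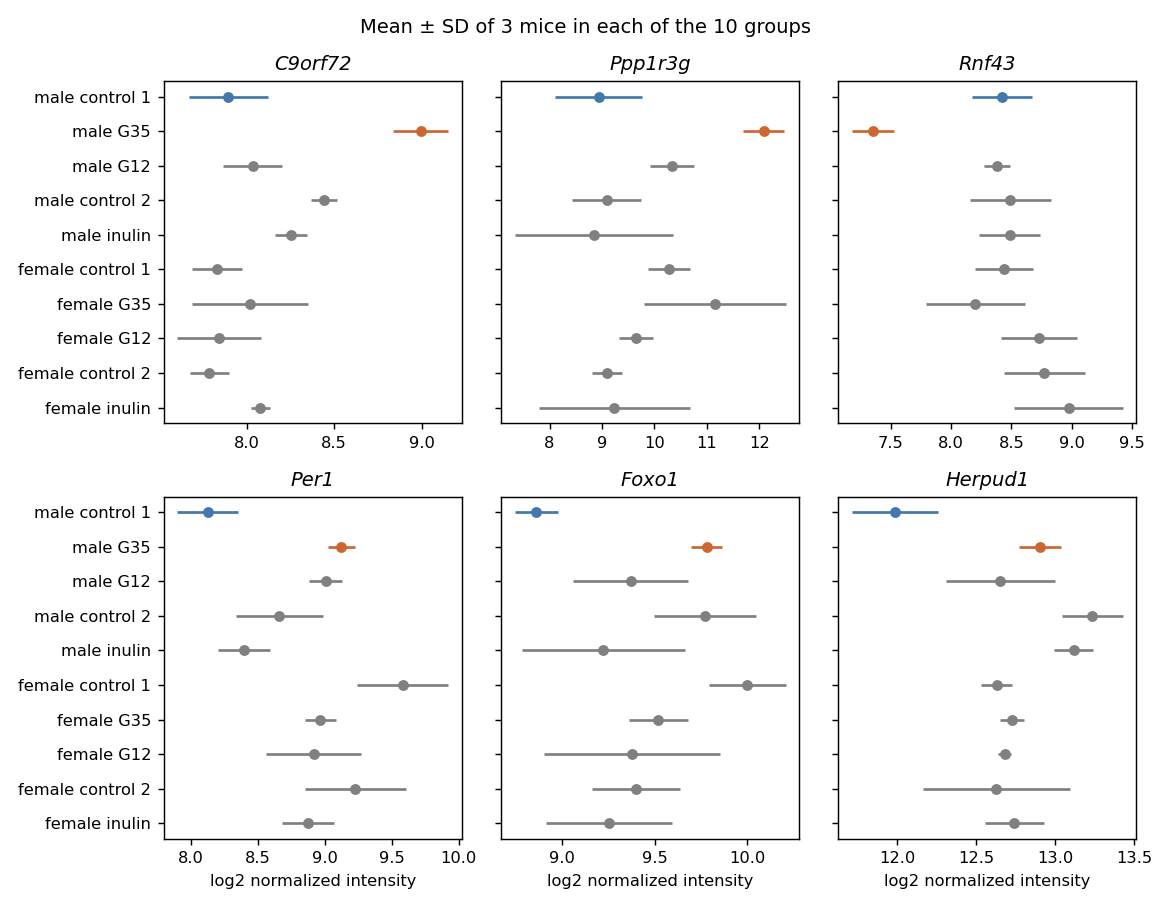
Mean ± SD of log2 normalized intensity (x axis) in each of the 10 groups of 3 mice, for 6 genes, with male control 1 in blue, male G35 in orange and the rest in grey. C9orf72, Ppp1r3g and Rnf43 set male G35 apart at one end, whereas Per1, Foxo1 and Herpud1 have male control 1 at the low end with other control groups at or above male G35.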

How the data were processed

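Liver RNA labelled with Cy3 was hybridized to one-colour Agilent arrays, 1 mouse per array, and replicates are separate animals per the labels. The deposited values are linear intensities. Per the submitters' processing notes, the authors extracted them by Agilent Feature Extraction; its version and the signal column are not given in the sources used here. The deposited intensities were whole numbers from 39 to 65535 with unequal medians between arrays, and no normalization was visible in them.

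From these values, background was corrected with normexp (offset 50) and arrays were quantile normalized and put on the log2 scale in limma 3.58.1 (R 4.3.3). A single gene symbol was given for 12544 of 15505 probes, no symbol for 2961 and several for 0. RefSeq matched all 12544 and changed 0. Genes with several probes (1869, up to 12 each) took the probe with the highest mean over all arrays, leaving 8996 genes. Of these, 18 reached the maximum intensity on some of the 6 arrays. Among the 18 only Alb is named in the results, as a hepatocyte marker. One limma fit with empirical Bayes covered all 30 arrays in 10 groups of sex and gavage, and p-values were adjusted by Benjamini-Hochberg over all genes, with calls under 0.05. Intervals come from this fit, as do SEs unless slide is named. The same fit with slide as a fixed block used the slides in the labels.

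Deviations from the group mean correlated at 0.405, 0.430 and 0.596 for male control 1 and G35 arrays of the same number and slide, and at -0.435 to 0.139 for other pairs. Number and slide coincide in these 6 arrays, so this check cannot tell which of them pairs the mice; the pairing used is the slide in the labels, and the replicate block is given beside it. Alternatives were slide as a random block, the replicate block, the arrays of the compared groups alone, 3 other scalings, no background correction, leaving out the 25% dimmest genes, trend and robust options, every probe, and leaving out each array.

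Named genes were those called in either fit (up to 20 higher and 10 lower), up to 4 further members per list by the size of the moderated statistic, 3 gene families in full, and called genes of each test of a difference. Other names were added after their values had been seen. The groups, lists and tests were chosen with earlier results of these data known. Simulated data were used to test the comparison of male G35 with water, fitted without slide and with slide as a fixed or random block.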

Additional observations from a re-analysis of the deposited data

Results flagged for a closer look

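The difference between male G35 and male control 1 livers differed from the corresponding female difference, by limma's test of the difference itself, for 2 genes. For Per1 the male minus female difference was 1.61, and for Slc25a4 it was -1.65. Per1 lay higher with G35 in males and lower with G35 in females, and Slc25a4 the other way round. For Per1 the G35 means were close, 9.12 in males and 8.97 in females, while the control 1 means were 8.12 and 9.58. With slide in the model neither passed (adjusted p 0.0835 for each).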

How the results depend on the processing

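Without slide in the model, 1 gene passed between male G35 and male control 1. That count became 32 with slide fixed, 41 with slide random, 9 with the replicate block, 4 with cyclic loess and 0 on the 6 arrays alone, and ran from 1 to 8 when 1 array was left out. With slide fixed, 32 genes passed, and the count was 9 with the replicate block, 17 with median centring, 20 with 75th percentile scaling, 18 with every probe tested and 2 to 22 without 1 array. The sex difference (2 genes) gave 0 with slide fixed, the replicate block, the compared arrays alone, median centring or 75th percentile scaling, 1 with cyclic loess, 4 with every probe and 0 to 3 without 1 array. G35 against G12 (4 genes) gave 1 with the replicate block, 0 on the compared arrays alone, 1 with 75th percentile scaling and 0 to 3 without 1 array. G35 against inulin (4 genes) gave 13 with slide fixed, 9 with slide random, 0 with the replicate block or the compared arrays alone, 2 with median centring or 75th percentile scaling and 0 to 14 without 1 array. Leaving out an array gives fewer samples, and the compared arrays alone leave fewer residual degrees of freedom; the cause of the other changes was not tested.

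Of 1988 recomputed differences of named genes, 11 changed sign, none of them in a called gene. Ccnb2 became -0.043 with median centring, -0.0207 with 75th percentile scaling and -0.0442 to 0.2634 without 1 array, including -0.0011. Ppp1r3b became -0.0641 and -0.0419 under those scalings and -0.3829 to 0.6471 without 1 array, including -0.3517 and -0.2587. Without 1 array Igfbp3 ran from -0.0072 to 0.1397 and Igfbp2 from -0.1626 to 0.0475. Without slide, C9orf72 missed the threshold on the 6 arrays alone. List medians turned sign in 11 of 189 recomputations, over 7 lists, among them chaperones at -0.04 without slide 1. Signals near the offset, log2 5.64, limit what can be seen of dim genes such as Ppp1r3c.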
